A study of Rattus norvegicus with 12 samples.

Results

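Estradiol (E2) given to hypothyroid and orchidectomized (TXOX) male rats was compared with vehicle in the liver, on the 4 arrays labelled TXOXE2 of the 12 two-colour arrays of the study. These 4 arrays were taken by their label, and a probe was kept when at least 3 of them gave a value. This left 19289 of the 26962 probes on the array, of which 16248 had 4 values and 3041 had 3. Of the 7673 probes not tested, 1982 had a value on 2 arrays, 2377 on 1 and 3314 on none.

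All animals were Sprague-Dawley males aged 3 months. To make them hypothyroid, methimazole was added at 0.05% to their drinking water for 5 weeks, from postnatal day 59 to day 94, and after the first 2 weeks they were castrated. Injections began 4 days later. TXOXE2 rats received E2 benzoate at 50 µg/kg on 5 days a week for 27 days and were killed 24 h after the last injection, and TXOX rats received vehicle. In the remaining groups, growth hormone (GH) was given for the last 7 days at 0.3 mg/kg per day. It was added to vehicle (TXOXGH, 4 arrays) or to E2 that had already been given for 20 days (TXOXE2GH, 4 arrays). Rats given GH were killed 12 h after its last injection. Castration and methimazole were thus common to treated and vehicle animals, the pituitary was left in place, and no euthyroid or testis-bearing animal was on these arrays. Thyroid hormone was low in all groups but not equal. The mean serum T3 that the study reported was higher in TXOX rats than in each treated group. Whether this difference plays a part in the ratios to TXOX was not tested.

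Methimazole blocks thyroid peroxidase and with it the synthesis of thyroid hormone, which in turn lowers the output of GH by the rat pituitary. E2 acts on hepatocytes through estrogen receptor alpha, a nuclear receptor that binds DNA as a ligand-activated transcription factor. E2 also acts on the pituitary, where it alters the secretion of GH, the hormone that sets much of the difference between male and female rat liver in steroid hydroxylases and secreted proteins. Liver genes that respond to E2 in rats include those of lipid and bile acid metabolism and of plasma proteins made by the hepatocyte.

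On each array 1 RNA sample of an E2-treated rat carried Cy5 and TXOX RNA carried Cy3, according to the channel descriptions. The treated group is, however, entered as the source of both channels. In the ratio to TXOX, dye and E2 therefore cannot be told apart. The dye was the same on the TXOXGH and TXOXE2GH arrays, so it cancels when treatments are compared with each other. Comparisons of E2 with the GH groups do, however, hold the difference in time since the last injection. That of TXOXE2 with TXOXGH also sets 27 days of E2 against 7 days of GH. Which TXOX animal was hybridized on which array is not given in the sources used here, and no reference spread could be measured apart from that of the ratios. The probes carry identifiers of a rat oligonucleotide set that the sources used here do not pair with genes. Gene groups and the markers of hepatocytes and of other liver cells were therefore not analysed here, and the tissue label was not checked against them. In whole liver, moreover, fewer cells of a type and less RNA per cell cannot be told apart.

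The 4 arrays differed in signal. Of 27094 spots with a probe, 19343 to 20882 were not flagged. Foreground over local background had medians of 1.82, 1.40, 1.63 and 1.91 in Cy5 and of 1.93, 1.59, 1.93 and 1.81 in Cy3 for replicates 1 to 4. Replicate 2 was the dimmest in both channels and had the fewest unflagged spots. It also had the smallest spread of log2 ratios over probes (SD 0.326, against 0.386 to 0.405 on the other 3 arrays). Pearson's correlation of the log2 ratios between arrays was 0.31 to 0.44 across probes, which are not independent replicates. Its lowest value was that of replicates 1 and 2. The number of arrays limits the precision: the SD of a probe's log2 ratio between the 4 arrays had a median of 0.22, with 0.281 among the dimmest of 4 equal groups of probes by intensity and 0.198 among the brightest.

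The first question was which probes had a log2 ratio of TXOXE2 to TXOX other than 0. Calls required an adjusted p of limma under 0.05 together with a ratio of 0.58 or more in size on the log2 scale. Between TXOXE2 and TXOX, 415 of the 19289 probes (2.15%) were called changed, a ratio in which dye and E2 cannot be told apart. Higher ratios were found for 218 (1.13%) and lower ratios for 197 (1.02%). Probes called higher had a median of 0.77 on the log2 scale (median standard error 0.159), and those called lower had a median of −0.74 (median standard error 0.151). Over all probes tested the median was 0.00, and 5% lay below −0.39 and 5% above 0.40. Most calls were modest in size, and 154 of the 415 were under 0.7. A 2-fold change or more was reached by 54 higher and 35 lower probes, and a 4-fold change or more by 15 higher and 3 lower ones. None of these 3 lower probes had both channels above local background on all 4 arrays, so their size rests on a Cy5 signal near the floor.

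**Figure D1:**
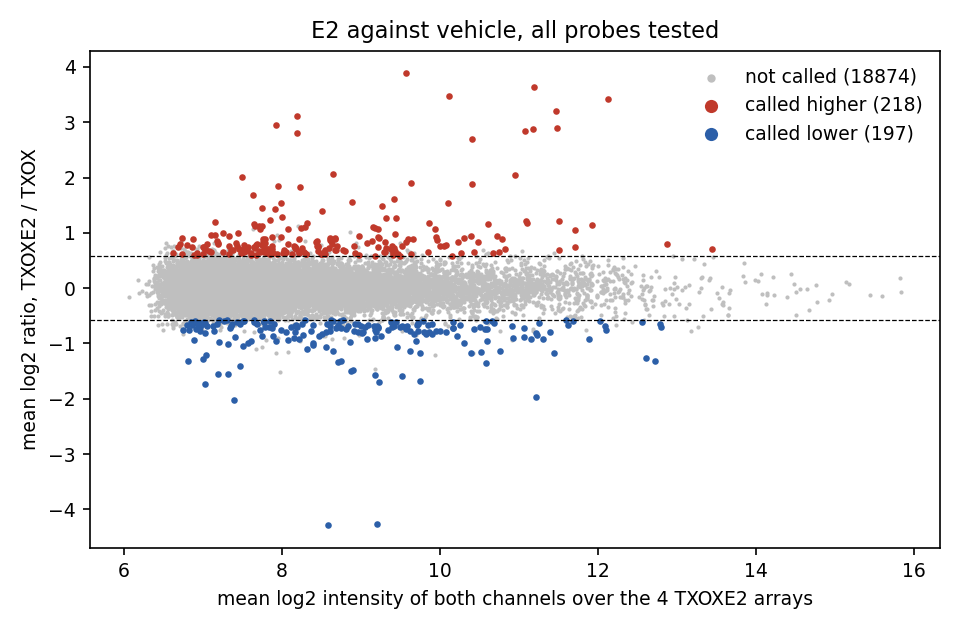
Mean log2 ratio of TXOXE2 to TXOX (vertical axis) against the mean log2 intensity of both channels (horizontal axis) for the 19289 probes tested on the 4 TXOXE2 arrays. Red points are the 218 probes called higher, blue points the 197 called lower, grey points those not called, and dashed lines mark a log2 ratio of 0.58 in either direction. A few rises stand above 3 and a pair of falls below −4, while most called probes lie near the dashed lines.

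The arrays mostly had a common sign for these probes. Among probes called higher, all arrays with a value were positive for 216 of 218, and among those called lower, all were negative for 190 of 197. Over all probes tested the sign was common for 6126 (31.8%). These shares describe the calls and do not test them, since the same arrays made both. On replicates 1 to 4 the higher probes had medians of 0.88, 0.67, 0.87 and 0.81, and the lower probes had medians of −0.91, −0.50, −0.74 and −0.92. Replicate 2 had the smallest median in each direction. Without it 465 probes were called (2.66% of those then tested), 254 of them lower. Without replicates 1, 3 and 4 in turn, 291 (1.7%), 269 (1.59%) and 277 (1.67%) were called. The number of lower probes was 122 without replicate 3 and also 122 without replicate 4. Whether the lower signal of replicate 2 played a part in its smaller ratios was not tested.

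Without the fold threshold 963 probes (4.99%) passed the adjusted p, 471 higher and 492 lower. Conversely, 206 probes reached a log2 ratio of 0.58 in size but not the adjusted p of limma. An unadjusted p under 0.05 was found for 3981 probes. One-class SAM on the 4 arrays, which had 16 sign flips to draw on, called 357 probes at the same fold, 200 higher and 157 lower, and 316 of them were among the 415.

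Calls were more frequent among bright probes. In 4 equal groups by mean log2 intensity, from the dimmest (group 1) to the brightest (group 4), 53 (1.10%), 62 (1.29%), 93 (1.93%) and 207 (4.29%) were called. Higher and lower calls were not spread alike. In groups 2 and 3, higher calls outnumbered lower ones, 39 against 23 and 61 against 32, whereas in group 4 there were 93 higher and 114 lower calls. The median standard error was 0.166 in group 1 and 0.114 to 0.128 in the others. A difference between the groups was not tested.

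**Figure D2:**
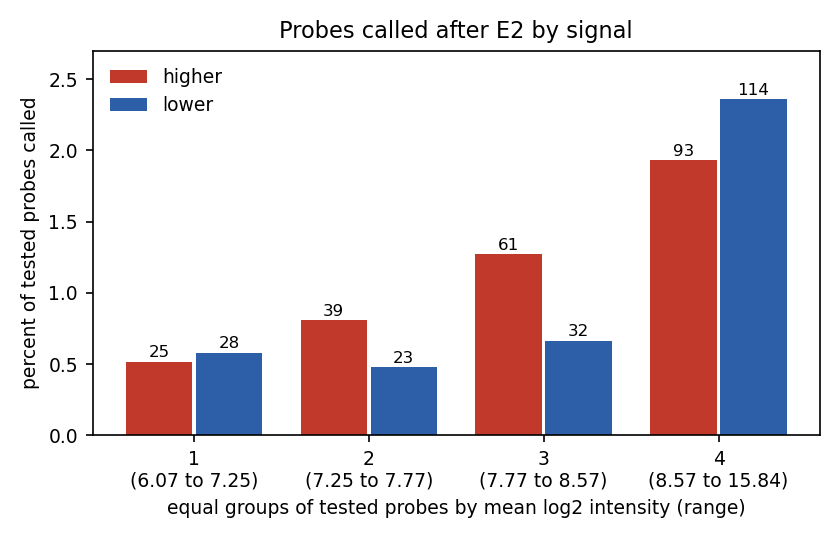
Percent of tested probes called higher (red bars) and lower (blue bars) after E2 in each of 4 equal groups of probes by mean log2 intensity, with the number called above each bar and the range of intensity below it. The brightest group, from 8.57 to 15.84, has the most calls in both directions, and it is there that lower calls outnumber higher ones by most.

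Local background set how well a ratio could be measured. A channel was taken as above background where the foreground was at least 1.5 times the local background. Both channels were above it on all 4 arrays for 9973 probes, of which 272 (2.73%) were called, 132 higher and 140 lower. Some arrays or channels were below it for 9022 probes, of which 124 (1.37%) were called, 80 higher and 44 lower. Neither channel was above it on any array for 222 probes, and 1 of these was called.

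A small set of called probes was measured in only 1 channel, so that only a bound can be given for the fold. Of 9 probes above background in the E2 channel on all 4 arrays and in the TXOX channel on none, 5 were called, all higher. Their mean expression over the arrays was at least 1.60-fold to 7.61-fold higher after E2, with a median bound of 3.37-fold. Single arrays varied, and the probe bounded at 7.61-fold had log2 ratios of 0.49 to 4.47. In the opposite set, 63 probes were above background in the TXOX channel alone, and 13 of them were called, all lower. On the mean over the arrays these were at least 1.28-fold to 3.28-fold lower after E2, with a median bound of 1.61-fold. Here too single arrays varied, and the probe bounded at 1.81-fold had log2 ratios of −1.76 to −0.21. The bounds use the lowest signal of any probe above background on the same array, or the probe's own where that was higher, after scaling of average intensity between arrays, and they are open to dye bias. The direction of these calls is fixed by how the sets were defined.

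The 4 probes followed by name were the 2 largest rises and the 2 largest falls among called probes with a common sign on every array with a value and with both channels above background on all 4, flagged spots included. A probe could thus qualify with 3 values. There were 130 rises and 134 falls to choose from. The probes were chosen for their E2 ratios, and the E2 arrays enter the comparisons with the other treatments below. This choice by itself favours larger differences there. No gene name, coordinate or sequence is attached to these probes in the sources used here.

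Probe Rn30012044 rose most. Its log2 ratio was 4.24, 3.63, 3.99 and 3.69 on E2 replicates 1 to 4. The mean was 3.88 ± 0.285 (SD, n = 4), a 14.8-fold higher level (standard error 0.247, limma-adjusted p = 1.77e-07). The 4 arrays were close to each other. The Cy5 foreground was 14.9 to 34.5 times local background against 1.66 to 2.5 times in Cy3. The denominator was thus near background on every E2 array. One of the 4 spots had saturated pixels, up to 3% of them.

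This probe was also high after the GH treatments, where the dye was the same, so dye and treatment cannot be told apart in the shared rise. Its log2 ratio was 2.07, 2.36, 3.90 and 2.10 on TXOXGH replicates 1 to 4 and 3.68, 3.78, 4.84 and 3.6 on TXOXE2GH replicates 1 to 4. The TXOXE2 and TXOXGH arrays overlapped through GH replicate 3, and the TXOXE2 and TXOXE2GH arrays overlapped as well. E2 exceeded GH by 1.28 (standard error 0.350, limma-adjusted p = 0.11), which did not pass the threshold. Without GH replicate 3, a fit chosen after seeing the data, the difference was 1.71 (limma-adjusted p = 0.00488). Without any other single array it did not pass, with limma-adjusted p of 0.0632 to 0.286. E2 plus GH differed from E2 by 0.09 (standard error 0.350, limma-adjusted p = 0.947), and by −0.20 without replicate 3 of TXOXE2GH.

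Probe Rn30019716 had the second largest rise. On E2 replicates 1 to 4 its log2 ratio was 3.91, 3.56, 2.97 and 4.11. This gave 3.63 ± 0.497 (SD, n = 4), a 12.4-fold higher level (standard error 0.234, limma-adjusted p = 1.77e-07). Signal over background varied widely, from 16.1 to 150 times in Cy5 and from 1.94 to 12.5 times in Cy3, with the lowest values on replicate 2 in both channels.

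For Rn30019716 the log2 ratio was 2.06, 1.88, 2.63 and 1.60 on the TXOXGH arrays, all below the lowest E2 array. E2 exceeded GH by 1.59 (standard error 0.331, limma-adjusted p = 0.0284). This call was lost with saturated spots left out (1.44, limma-adjusted p = 0.0759), 1 of the 4 E2 spots having saturated pixels, and with scaling between arrays (1.498, limma-adjusted p = 0.105). It was also lost without any one of E2 replicates 1, 2 and 4 or GH replicates 1, 2 and 4, with differences of 1.44 to 1.62 and adjusted p of 0.0603 to 0.0969. On the TXOXE2GH arrays the log2 ratio was 2.31, 2.86, 3.90 and 2.21, which overlapped both other groups. E2 plus GH differed from E2 by −0.81 (standard error 0.331, limma-adjusted p = 0.346).

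Probe Rn30012333 fell most among the probes measurable in both channels. Its log2 ratio was −1.44, −1.35, −1.96 and −3.09 on E2 replicates 1 to 4. The mean was −1.96 ± 0.800 (SD, n = 4), a 3.89-fold lower level (standard error 0.283, limma-adjusted p = 0.00115). Replicate 4 lay far below the other 3. The probe was bright in TXOX RNA, at 15.3 to 47.5 times local background in Cy3, and at 4.75 to 13.1 times in Cy5.

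The same probe was low against TXOX in every treatment, always with the same dye, so dye and treatment cannot be told apart in the shared fall. Its log2 ratio was −0.63, −2.04, −1.46 and −1.25 on the TXOXGH arrays and −1.35, −2.76, −3.06 and −2.12 on the TXOXE2GH arrays, and the ranges of all 3 groups overlapped. E2 differed from GH by −0.62 (standard error 0.400, limma-adjusted p = 0.623) and E2 plus GH differed from E2 by −0.36 (standard error 0.400, limma-adjusted p = 0.768).

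Probe Rn30017870 behaved otherwise. On E2 replicates 1 to 4 its log2 ratio was −1.66, −0.80, −1.70 and −2.64. The mean was −1.70 ± 0.752 (SD, n = 4), a 3.25-fold lower level (standard error 0.208, limma-adjusted p = 0.000317). The E2 arrays varied more than those of the other 2 treatments (SD 0.406 after GH and 0.258 after E2 plus GH). With the E2 arrays alone in the fit, the limma-adjusted p was 0.00431, and 0.0183 without the intensity trend. On the TXOXGH arrays it was 0.50, −0.16, 0.02 and 0.71, and on the TXOXE2GH arrays 0.56, 0.16, −0.07 and 0.23. All E2 arrays were below all arrays of the other treatments. The difference of E2 from GH was −1.97 (standard error 0.294, limma-adjusted p = 0.00279), and E2 plus GH was higher than E2 by 1.92 (standard error 0.294, limma-adjusted p = 0.00632). The Cy5 signal was 2.52 to 4.63 times local background on the E2 arrays, 15.9 to 29.1 times on the TXOXGH arrays and 12.3 to 16.5 times on the TXOXE2GH arrays. In Cy3, the channel of TXOX RNA, it was 7.24 to 10, 11.2 to 21.2 and 9.71 to 18.9 times. The reference signal was thus also lower on the E2 arrays than on the TXOXGH arrays. The dye was the same on all 12 arrays, so these differences between treatments do not hold a dye effect that is common to the arrays.

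**Figure D3:**
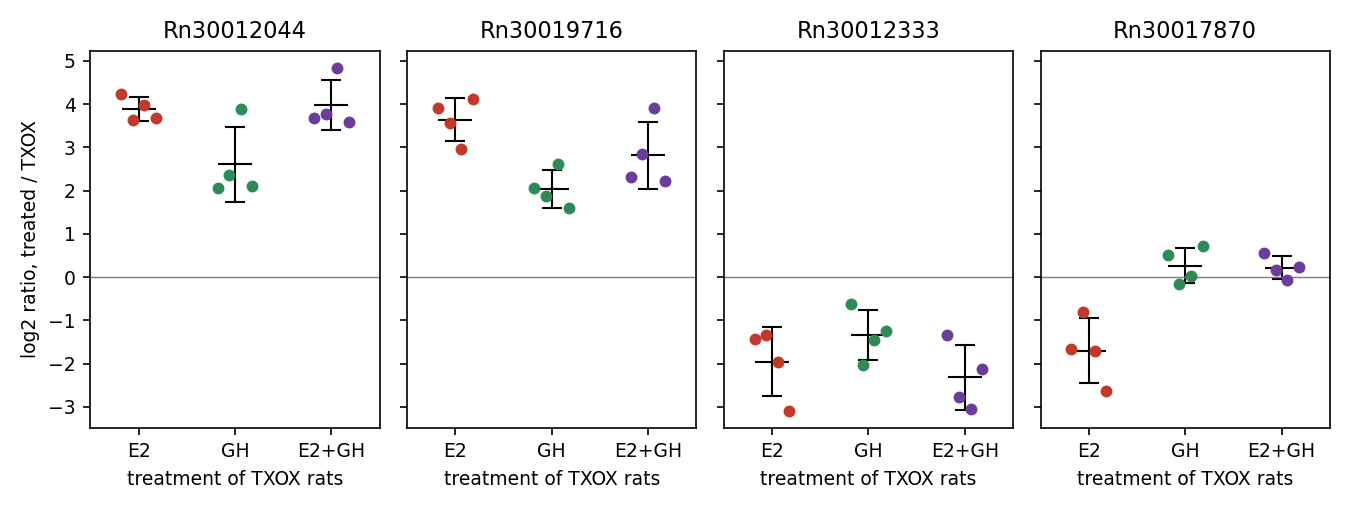
Log2 ratio of treated to TXOX RNA (vertical axis) on each of the 4 arrays after E2, GH or E2 plus GH (horizontal axis) for 4 probes. Points are arrays, horizontal bars the group mean and error bars the SD (n = 4). Rn30012044, Rn30019716 and Rn30012333 each lie on the same side of 0 in all 3 treatments. Rn30017870 lies below −0.8 on every E2 array and between −0.16 and 0.71 on the others.

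The most similar probes were sought among 14796 others with a value on all 12 arrays, by Pearson's correlation of the log2 ratios over these arrays. One probe reached 0.95 with Rn30019716 (r = 0.958), was printed in the same block and had a log2 ratio of 3.20 after E2. A pair of probes reached it with Rn30017870 (highest r = 0.974), 1 of them in the same block, with log2 ratios of −0.68 and −1.35. No probe reached it with Rn30012044 (highest r = 0.931) or Rn30012333 (highest r = 0.900). Whether probes of like pattern belong to 1 gene was not analysed here.

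The 10 largest rises under the same conditions had log2 ratios of 2.06 to 3.88 (standard errors 0.154 to 0.495, limma-adjusted p from 6e-08 to 0.00417). Of these, 6 were higher after E2 than after GH at the adjusted p of limma, where 67 of all 18879 probes tested (181, or 0.959%, in either direction) were higher. The 10 were chosen for their E2 ratios and the E2 arrays enter this comparison, so nothing is read from the count. The fourth largest had 3 values, with its spot on replicate 2 flagged. The third largest had a log2 ratio of 3.27, 2.62, 3.04 and 4.95 on the E2 arrays and of 3.90, 5.05, 5.99 and 5.48 on the TXOXGH arrays, and these groups overlapped. It was the only one of the 10 with a higher mean after GH, 5.10 against 3.47, and the difference did not pass the test (−1.63, standard error 0.466, limma-adjusted p = 0.13).

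Another 2 of the 10 were near 0 after GH. The ninth largest rise had log2 ratios of 2.99, 1.40, 3.39 and 3.04 on the E2 arrays and −0.35, 0.03, −0.38 and −0.03 on the TXOXGH arrays. The groups did not overlap, and the difference was 2.89 (standard error 0.321, limma-adjusted p = 0.000277). On the TXOXE2GH arrays this probe had −0.11, 0.66, 0.72 and 0.48, a difference from E2 of −2.27 (standard error 0.321, limma-adjusted p = 0.00359), and it was the only one of the 10 to differ between these treatments. The eighth largest varied more, with 2.69, 3.58, 1.34 and 3.78 on the E2 arrays, 0.99, −0.27, −0.40 and 0.16 on the TXOXGH arrays and −0.93, 2.19, 0.54 and −2.07 on the TXOXE2GH arrays. Its difference from GH was 2.72 (standard error 0.7, limma-adjusted p = 0.0834). Among the 10, 3 had saturated pixels on 1 E2 array.

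The 10 largest falls were smaller, from −1.96 to −1.31 (standard errors 0.173 to 0.371, limma-adjusted p from 0.000281 to 0.0231). Of these, 4 were lower after E2 than after GH at the adjusted p of limma, as were 114 of all 18879 probes tested. Among the 4, 2 were also lower after E2 than after E2 plus GH, a comparison in which 85 of 17937 probes (0.474%) differed. These 10 were likewise chosen on E2 arrays that enter both comparisons, and nothing is read from the counts. The third largest fall had −0.86, −1.06, −2.50 and −2.29 on the E2 arrays against 0.85, 1.68, 1.93 and 1.64 on the TXOXGH arrays, a difference of −3.20 (standard error 0.524, limma-adjusted p = 0.00576). On the TXOXE2GH arrays it was −1.55, −2.43, 0.39 and 0.18, so that 2 arrays were low and 2 near 0.

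The seventh largest fall resembled Rn30017870 and was the probe at −1.35 among those that reached a correlation of 0.95 with it. It had −1.25, −0.65, −1.35 and −2.15 on the E2 arrays, 0.90, 0.28, 0.24 and 0.17 on the TXOXGH arrays and 0.45, 0.40, 0.28 and 0.40 on the TXOXE2GH arrays. Its difference of E2 from GH was −1.75 (limma-adjusted p = 0.00177), and E2 plus GH exceeded E2 by 1.73 (limma-adjusted p = 0.00359). For both of these probes the E2 arrays lay apart from all other arrays. They are not taken as separate observations, since whether they belong to 1 gene was not analysed.

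Larger falls were found among probes that were not above background in Cy5 on all 4 arrays. A pair of probes had log2 ratios of −4.29 and −4.26, described here after their values were seen. The first had −4.01, −3.38, −4.74 and −5.02 on the E2 arrays (standard error 0.358), with Cy3 at 12.2 to 16.1 and Cy5 at 1.06 to 1.53 times local background. The second had −4.58, −3.03, −4.58 and −4.85 (standard error 0.258), with Cy3 at 8.73 to 43.1 and Cy5 at 1.18 to 2.07 times local background. The size of these ratios rests on a Cy5 signal close to background. On the TXOXGH arrays their means were −0.91 and 0.09, and on the TXOXE2GH arrays −3.46 and −1.62. Differences between treatments are not given for this pair, since the floor would set their size.

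Over the whole sets, the 218 higher probes had a median log2 ratio of 0.77 after E2, 0.24 after GH and 0.24 after E2 plus GH. The 197 lower probes had medians of −0.74, −0.26 and −0.48. Over all probes tested the medians were 0.00, 0.00 and −0.01. The 3 treatments share the TXOX reference and the dye, and the probes were chosen on the E2 arrays, which by itself favours larger values there. In the direct comparison of E2 with GH, 181 of 18879 probes (0.959%) differed at an adjusted p of limma under 0.05, 67 with a higher and 114 with a lower ratio after E2. Among the higher probes 31 of 211 (14.7%) differed, 29 with a higher ratio after E2, and among the lower probes 35 of 195 (17.9%) did, all with a lower ratio after E2. Between E2 plus GH and E2, 85 of 17937 probes (0.474%) differed, among them 18 of the 208 higher probes tested (8.65%) and 13 of the 191 lower probes tested (6.81%). The E2 arrays chose these probes and enter both comparisons, so nothing is read from the shares.

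The log2 ratio also followed position on the slide when the normalization did not take it up. The array was printed in 48 blocks, in 12 rows of 4. With a single loess curve per array, the block accounted for 33.7% of the variance of the E2 log2 ratio over probes, and on replicates 1 to 4 it accounted for 15.0%, 39.5%, 30.7% and 13.2%. With loess fitted within each block it accounted for 0.207%. Block means under the single curve ran from −0.40 to 0.37. By block row they went from −0.21 in the first row and −0.22 in the second to 0.32 in the last, with each row above the one before from the second row on. The last block column was lowest, at −0.14, against 0.01 to 0.07 in the other 3.

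**Figure D4:**
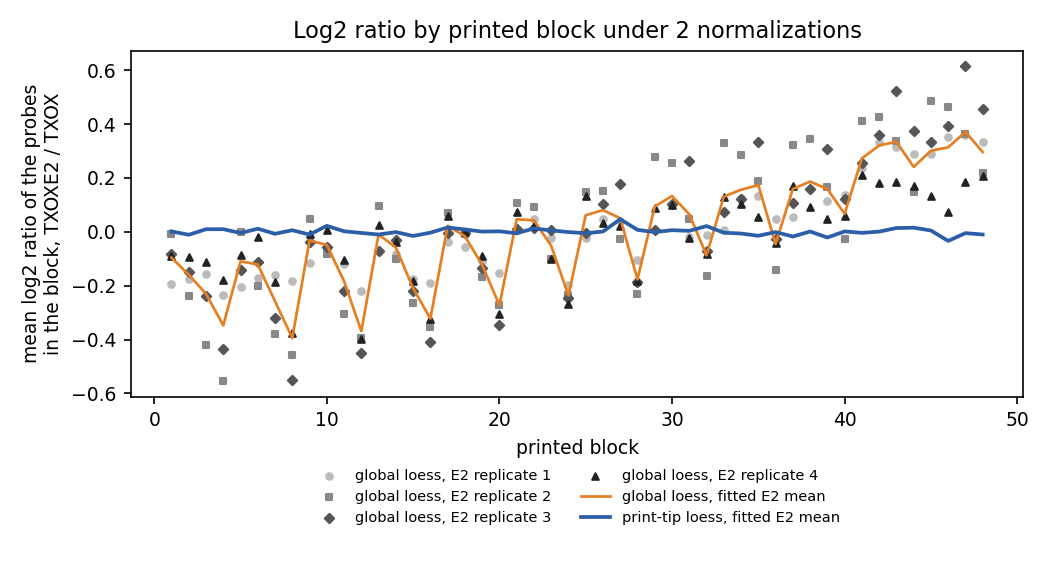
Mean log2 ratio of TXOXE2 to TXOX over the probes of each printed block (vertical axis), by block number (horizontal axis). Grey and black symbols are the 4 E2 arrays and the orange line their fitted mean under a single loess curve per array, and the blue line is the fitted mean with loess within each block; the orange line runs from −0.40 to 0.37 and the blue line from −0.03 to 0.05.

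The number and the direction of calls changed with it. The single curve called 1202 probes, of which 298 were among the 415. In block rows 1 to 6 these were 64 higher and 510 lower probes, and in rows 7 to 12 they were 533 higher and 95 lower. With loess within blocks the same parts of the slide held 102 higher and 81 lower, and 116 higher and 116 lower probes. Calls per block numbered 4 to 82 (median 16.5) under the single curve and 3 to 18 (median 9) with loess within blocks.

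Repeated spots gave a check of position that did not depend on the calls. There were 12 probes printed 12 times, which gave 48 sets of spots over the 4 E2 arrays. The SD of the log2 ratio over spots of 1 probe on 1 array had a median of 0.334 under the single curve and 0.19 with loess within blocks, and it was smaller with the latter in 42 of 48 sets. With loess within blocks it ranged from 0.1 to 0.906. The means of these probes varied between arrays with a median SD of 0.147. One of the 12 was called, at 0.77 (standard error 0.122, limma-adjusted p = 0.00227), and the 12 ratios ran from −0.24 to 0.77.

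The authors' own table of log2 ratios gave values for 12740 of these probes on at least 3 E2 arrays. The same limma test called 665 of them (5.22%), 378 higher and 287 lower. Of the 415 probes, 347 could be tested in it, 227 were called, all in the same direction, and 346 of 347 had the same sign. In that table the medians were 0.79 among higher and −0.68 among lower probes. Block accounted for 39.6% of the variance of the mean ratio in that table. Across the 12740 probes its mean correlated with the single-curve mean by 0.971 and with the within-block mean by 0.745. The medians of its 4 columns were 0.00, 0.08, 0.01 and 0.02, so its values are centred near 0, and their sign is that of Cy5 over Cy3.

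The 4 named probes had values in that table too. Rn30012044 had 3.91, 3.08 and 3.29 on E2 replicates 1 to 3 and no value on replicate 4. Rn30019716 had a mean of 3.45, Rn30012333 of −2.36 and Rn30017870 of −1.52, each over 4 arrays. All 4 kept their direction, and Rn30012333, printed in block 8, was lower there than with loess within blocks.

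**Figure D5:**
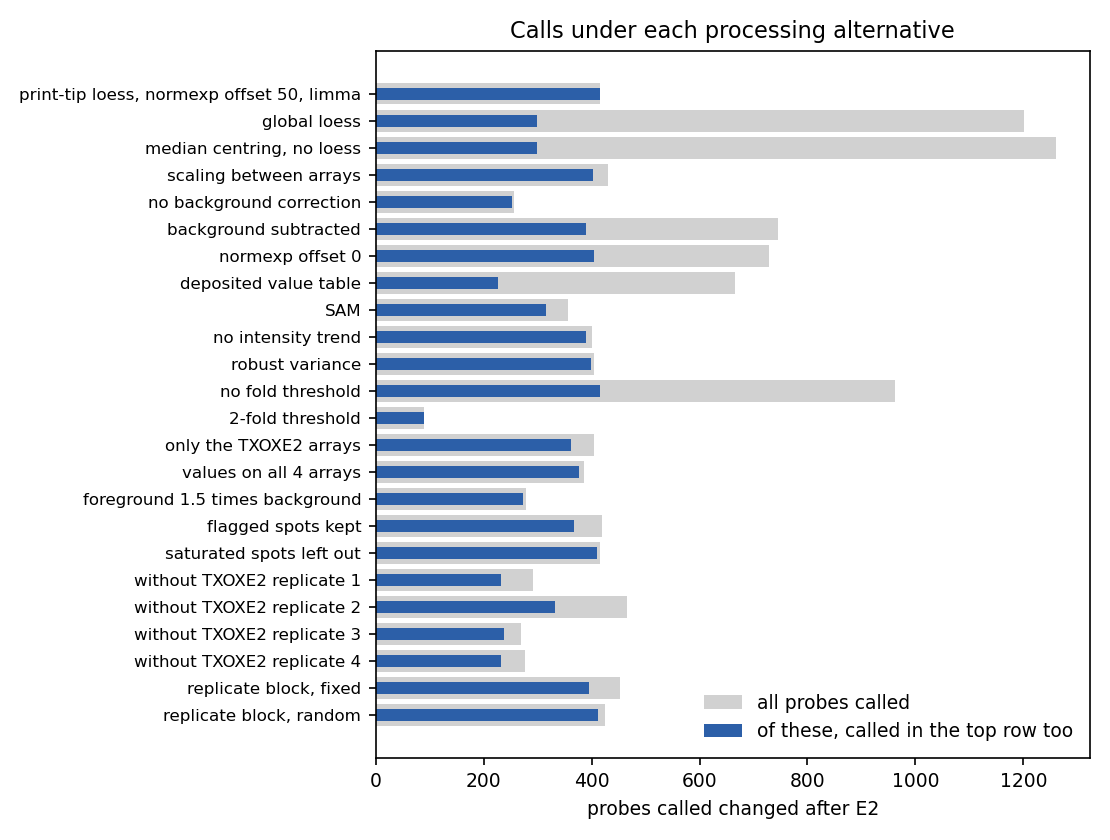
Number of probes called changed after E2 (horizontal axis, grey bars) under each processing alternative, and the number of these that were also called with print-tip loess, normexp at offset 50 and limma (blue bars). The single curve and median centring called 1202 and 1260 probes, 298 of them shared, and the table of the authors called 665, with 227 shared.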

How the data were processed

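RNA from liver was measured on 12 two-colour arrays of 70-mer oligonucleotides, 4 per treatment. The authors scanned the slides and used GenePix Pro to extract intensity values, deposited as foreground and local background medians in each channel, with flags and the deposited percent of saturated pixels. A table of LOWESS-normalized log2 ratios against TXOX was deposited too, with 22163 entries. Their tests used SAM.

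Intensities were corrected with normexp (offset 50) and normalized by print-tip loess, a curve within each of 48 printed blocks, in limma 3.58.1 (R 4.3.3). Loess within blocks removes any mean difference between blocks, whatever its source. The offset pulls ratios of dim probes towards 0. Spots with a flag were left out, as were 554 of the 27648 that held a control or nothing, and 12 probes printed 12 times were averaged. The linear model gave each treatment its own mean over the 12 arrays, with 9 residual degrees of freedom and a shared estimate of spread, with moderated tests, an intensity trend and Benjamini-Hochberg adjustment over all probes tested. The script was tested on simulated data. Intensities have no count depth, and signal over background takes its place.

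Per the labels the 4 arrays of a group are biological replicates. The probes named were, by rule, the 2 largest rises and 2 largest falls among called probes of common sign on every array with a value and with foreground at least 1.5 times background in both channels on all 4. The gene lists and marker lists drawn up for this comparison need a pairing of probes with genes and were not used here. The groups compared, the lists and the tests were chosen with earlier results of these data known. Alternatives covered normalization, background correction, test, fold threshold, filters, the arrays in the fit, the authors' table, the replicate number as a block, and leaving out each E2 array. Chosen after seeing the data were a fit of the E2 arrays alone without the trend and leaving out each GH and E2 plus GH array.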

Additional observations from a re-analysis of the deposited data

Results flagged for a closer look

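Among 21 groups of 4 values examined for a sample far from the others (the 4 named probes in 3 treatments, 8 measures of the E2 arrays and the mean log2 ratio of their Alien control spots), 3 were set apart, where chance sets apart about 1 in 20. A pair of them belong to probe Rn30012044, whose log2 ratio was 3.897 on GH replicate 3 and 4.838 on E2 plus GH replicate 3. The third was the mean over Alien control spots, which was 0.082, 0.074, 0.069 and 0.237 on E2 replicates 1 to 4. None of the other 8 measures of the E2 arrays was set apart.

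Treatments differed for 2 of the named probes at the adjusted p of limma. The named probes were chosen for their E2 ratios and the E2 arrays enter these comparisons, which by itself favours larger differences. The E2 ratio of Rn30019716 exceeded that after GH by 1.594 (limma-adjusted p = 0.0284), with all 4 E2 arrays above all 4 GH arrays. That call was lost without any one of 6 arrays (adjusted p of 0.0603 to 0.0969), with scaling between arrays (limma-adjusted p = 0.105) and with saturated spots left out (limma-adjusted p = 0.0759). That of Rn30017870 was below GH (−1.969, limma-adjusted p = 0.00279) and rose by 1.922 with E2 plus GH (limma-adjusted p = 0.00632), with no overlap between E2 and either group.

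Signal was present in spots left out of all comparisons. The 110 spots of the 10 Alien controls had a median Cy5 foreground of 2.14 to 4.69 times local background on the E2 arrays, against 1.08 to 1.19 in the 306 empty spots. Their mean log2 ratios ran from −0.123 to 0.394 (median 0.12), and none reached 0.58 in size.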

How the results depend on the processing

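The 4 named probes kept their direction after E2 and passed the thresholds under all 32 alternatives, with log2 ratios of 3.42 to 4.41 (Rn30012044), 3.45 to 3.86 (Rn30019716), −2.44 to −1.58 (Rn30012333) and −2.001 to −1.387 (Rn30017870). They were chosen as the largest called ratios of common sign, so leaving out an E2 array could not change their direction. The same choice favours passing the thresholds, and only the ranges are read from these values. Counts depended on the processing, and the cause was not tested except where the alternative itself relaxes or tightens the threshold. Against 415 called (218 higher and 197 lower), the count was 1202 (597 and 605) with global loess, 1260 (615 and 645) with median centring, 256 (125 and 131) without background correction, 746 (358 and 388) with background subtracted, 728 (354 and 374) at offset 0 and 665 (378 higher) in the deposited table. It was 963 (471 and 492) with no fold threshold and 89 (54 and 35) at 2-fold. Where only the 9973 probes above background were tested, 279 were called (2.8%, against 2.15% of the 19289), 138 of them higher. Lower probes were 127 on the E2 arrays alone without the trend. The share of variance between blocks was 33.7% with global loess, 34.4% with median centring, 39.6% in the deposited table, 0.248% without background correction and 0.255% at offset 0. Signal close to background limits the ratios of probes measured in 1 channel, which are given as bounds.

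Leaving out 1 of the 12 arrays gave 269 to 465 calls (1.59% to 2.66% of the probes then tested), 147 to 226 higher and 122 to 254 lower. E2 minus GH was then 1.101 to 1.71 for Rn30012044, 1.437 to 1.815 for Rn30019716, −0.847 to −0.237 for Rn30012333 and −2.268 to −1.655 for Rn30017870. E2 plus GH minus E2 was −0.198 to 0.216, −1.174 to −0.612, −0.738 to −0.116 and 1.608 to 2.222 for the same probes. The difference from GH of Rn30019716 no longer passed with scaling between arrays (1.498, limma-adjusted p = 0.105) or with saturated spots left out (1.438, limma-adjusted p = 0.0759). E2 plus GH minus E2 of Rn30012044, not called, changed sign with scaling (−0.161) and without replicate 3 of TXOXE2GH (−0.198).

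Pairing of the E2 arrays with those of the other groups by replicate number was not seen, but 4 arrays per group cannot exclude it. Pairing of TXOXGH with TXOXE2GH arrays was not examined. Replicate 3 was the highest array in both of these groups for Rn30012044 (3.897 and 4.838) and Rn30019716 (2.625 and 3.9). It was not the highest for Rn30012333 or Rn30017870. Deviations of same-numbered arrays correlated by −0.076 to 0.164 between E2 and GH and by −0.089 to 0.101 between E2 and E2 plus GH. In each comparison 1 of 4 was above 0.1. Of the E2 arrays, replicate 1 alone correlated best with its own number. As a random block, the replicate number had a consensus correlation of 0.0969. With the replicate number as a fixed block 453 probes were called (241 higher and 212 lower), and as a random block 425 (226 and 199). The fixed block made E2 minus GH of Rn30012044 pass (1.279, limma-adjusted p = 0.0165). A mean over the probes of a gene was not run, since probes were not paired with genes.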
